A study of Gallus gallus with 8 samples.

Results

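Chemokines are small secreted proteins that draw leukocytes into tissue. The entries described here are 8 of the 13427 genes in the deposited expression table of a chicken liver study, chosen by gene name: CCL1, CCL4, CCL19, CCL20, CCLI10, CXCL12 and k60. The name CCL4 belongs to a pair of Ensembl genes that were kept apart. ENSGALG00000000951, described in the table as the C-C motif chemokine 4 homolog, is called CCL4 below, and ENSGALG00000000956, described as chemokine-like ligand 1, is called CCLL4 after the RefSeq symbol of its accession.

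The study measured liver RNA and its N6-methyladenosine (m6A), a methyl mark on adenosines of messenger RNA. Broiler chickens aged 21 days received lipopolysaccharide (LPS) from Escherichia coli 055:B5 at 1 mg/kg by intraperitoneal injection, or the same volume of phosphate-buffered saline as the control, and livers were taken 2 h later. There were 8 libraries in 4 groups of 2, namely LPS immunoprecipitated (IP) with an antibody against m6A, LPS input, control IP and control input. Whether the paired libraries of a treatment are 2 animals is not stated in the labels, and p-values here reflect no more than library-to-library spread, which may be technical. Gene levels are FPKM (fragments per kilobase of transcript, scaled to the mapped fragments of the library) of the 4 input libraries, and m6A peaks come from 1 deposited list per treatment.

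Chemokines are grouped as CC or CXC by the spacing of their first cysteines, and they act on G protein-coupled receptors of the CCR and CXCR families. Inflammatory chemokines are switched on by microbial products such as LPS, largely through Toll-like receptors and NF-kB, whereas homeostatic ones are made in resting tissue and guide the routine traffic of lymphocytes and stem cells. Atypical receptors (the ACKR genes) bind chemokines without G protein signalling and clear them. In liver, resident macrophages, endothelium, stellate cells and hepatocytes can all make chemokines. Most of what is known of the individual ligands comes from human and mouse.

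The libraries of a treatment were alike across tested genes (Spearman correlation 0.975 between LPS and 0.965 between control libraries, against at most 0.850 between treatments). Of the 9484 genes tested with limma, 1014 (10.7%) were higher and 2982 (31.4%) lower after LPS at a Benjamini-Hochberg adjusted p under 0.05, and the median gene had a log2 fold change of -0.34. When the libraries were set to equal medians, the split became 1341 higher (14.1%) and 1594 lower (16.8%), and the median was -0.07. Hepatocyte markers were abundant in every library, with summed levels of 52917 to 55181 FPKM after LPS and 43592 to 44734 FPKM in control. Of the 9 tested, 3 were higher and 2, TTR among them, lower (4 and 1 at equal medians). ALB, the largest part of the sum, overlapped between treatments and did not pass the test. Without ALB the sum was 29594 to 32597 FPKM after LPS and 21799 to 27052 FPKM in control. Of markers of other cells, 6 of 7 tested macrophage genes were lower, and 5 at equal medians. The summed level of the 7 was 246 to 252 FPKM after LPS and 538 to 565 FPKM in control. Of endothelial genes, 5 of 10 were lower (59.1 to 76.3 FPKM after LPS, 115 to 127 FPKM in control). The endothelial count was 3 at equal medians, 3 without LPS library 2 and 3 without control library 1. Thrombocyte markers had 2 of 4 higher, THBS1 and ITGB3 (49.8 to 67.6 FPKM after LPS, 11.5 to 16.5 FPKM in control). Much of the LPS sum was THBS1. Without THBS1 the sum was 20.4 to 21.3 FPKM after LPS and 9.41 to 12.8 FPKM in control. Much of this remainder was ITGB3, with 18.0 and 15.6 FPKM in the LPS libraries, against 4.58 and 7.54 FPKM in the control libraries. B cell markers had BCL6 higher and BLK lower of 5 (49.4 to 50.5 FPKM after LPS, 21.6 to 29.2 FPKM in control), but without BCL6 the sum was 10.5 to 12.2 FPKM after LPS and 12.2 to 14.5 FPKM in control. The BLK call was lost at equal medians, with a pseudocount of 0.1 and whichever single library was left out. Heterophils, the avian counterpart of neutrophils, had 1 of 7 markers higher (162 and 62.2 FPKM in LPS libraries 1 and 2, 99.4 and 70.2 FPKM in the control libraries). Much of this sum was LYG2. Without LYG2 it was 51.3 and 20.1 FPKM in the LPS libraries and 15.7 and 32.5 FPKM in control libraries 1 and 2. The called marker was MMP9, with a control mean of only 0.603 FPKM. Here 1 library decided the count, which was 6 higher without LPS library 2, 1 higher and 1 lower without LPS library 1, and 2 higher without control library 2 or at equal medians. T and NK cells had 2 of 8 lower (41.1 to 42.6 FPKM after LPS, 39.5 to 51.6 FPKM in control), and stellate cells and fibroblasts had 1 of 8 lower (216 to 292 FPKM after LPS, 244 to 312 FPKM in control). At equal medians no T and NK marker was lower and 1, CD3D, was higher; none was lower without LPS library 1 or control library 2, and 1 without LPS library 2 or control library 1. For stellate cells and fibroblasts 3 were lower without LPS library 1 and 2 without LPS library 2, and 1 was higher without control library 2 or at equal medians. For hepatocytes 2 were higher without either LPS library, and 0 were lower without LPS library 2 and 1 without control library 2. Among the defining markers, PAX5 of B cells and GP9 of thrombocytes were below the expression filter. PAX5 was listed at 0 in both LPS libraries and had only 0.110 and 0.585 FPKM in the control libraries. GP9 had 0.316 and 0.233 FPKM in the LPS libraries, against 0.535 and 1.14 FPKM in the control libraries. The defining markers CD163, MPO, S100A9, CD79A, ITGA2B and COL1A1 were not analysed here. The part of these cell types in the chemokine changes was not tested, and in bulk liver fewer cells of a type and less RNA per cell, or more of either, cannot be told apart.

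All 8 chemokine entries passed the expression filter, and all 8 passed the test, against 42.1% of all tested genes. After LPS 6 of them were higher and 2 lower, against 10.7% higher and 31.4% lower among all tested genes. The LPS libraries lay above both control libraries for the 6 that rose, as they did for 18.4% of tested genes, and below both for the 2 that fell, as they did for 55.8%. The median log2 fold change of the 8 entries was 4.20, against -0.34 over all tested genes. CCL20 and k60 reached the filter, a mean of 1 FPKM over the 4 libraries, only through their LPS libraries, so they could enter the test only with a difference. Both are among the 6 counted as higher. The 8 entries and the related gene lists were chosen with earlier results of these data known. Their counts and medians are therefore no independent support. All log2 fold changes compare log2(FPKM + 1), so they come out too small for genes of low level.

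**Figure D1:**
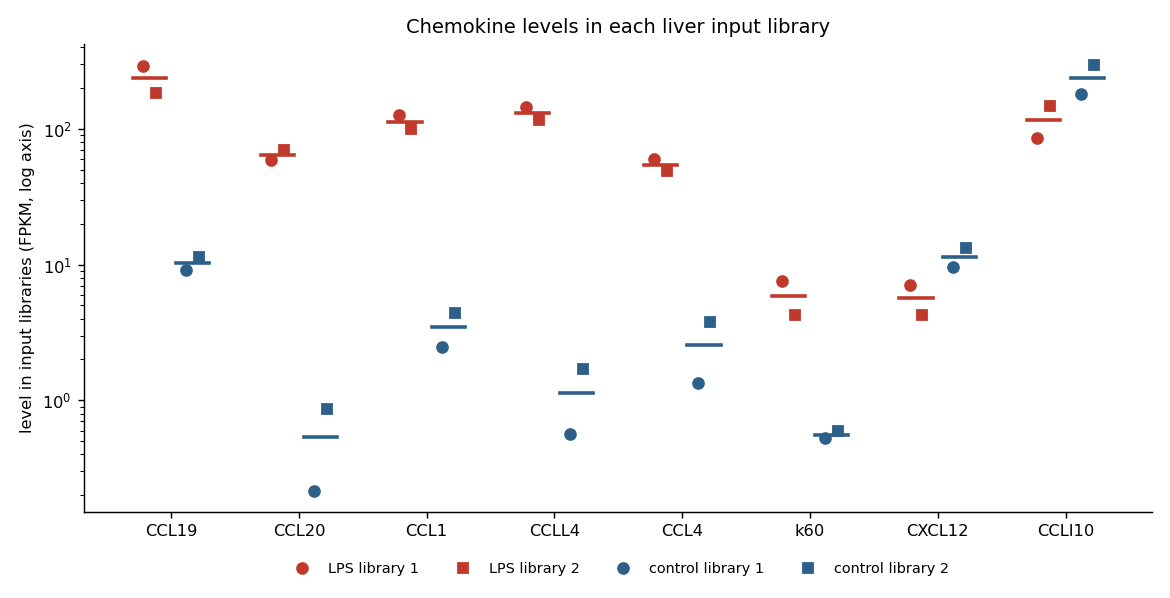
Level of each chemokine entry (FPKM, log axis) in the 2 LPS and 2 control input libraries; points are libraries and bars are group means. The LPS points lie above both control points for CCL19, CCL20, CCL1, CCLL4, CCL4 and k60 and below them for CXCL12 and CCLI10.

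The ligands of the CCL4 group had the largest and the fifth largest change among the 8. In mammals CCL4, or macrophage inflammatory protein 1 beta, is secreted by activated macrophages and lymphocytes and draws monocytes and NK cells. CCLL4 had 143 and 117 FPKM in the LPS libraries, against 0.568 and 1.70 FPKM in the control libraries. Each LPS library was far above both control libraries. Its mean was 130 ± 18.6 FPKM after LPS and 1.14 ± 0.803 FPKM in control (SD, n = 2 each), with a log2 fold change of 5.98 (SE 0.27, limma adjusted p = 1.15e-05). CCL4 had 59.6 and 48.9 FPKM in the LPS libraries, against 1.35 and 3.76 FPKM in the control libraries. The groups again stood apart, although the control libraries differed from each other by more than the LPS libraries did in relative terms. CCL4 averaged 54.2 ± 7.62 FPKM after LPS and 2.56 ± 1.70 FPKM in control (SD, n = 2 each), a log2 fold change of 4.04 (SE 0.32, adjusted p = 1.07e-04). In RefSeq these genes are near neighbours on chromosome 19, with TRIM58 between CCLL4 and the first of 2 entries that carry the CCL4 name or synonym. How the authors' counting divided reads between related copies is not given in the sources used here, so the separate levels of CCL4 and CCLL4 are uncertain.

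CCL1 is known in mammals as a T cell product that acts on CCR8. It had 125 and 99.4 FPKM in the LPS libraries, against 2.46 and 4.42 FPKM in the control libraries. No control library came near an LPS library, and CCL1 rose by a log2 fold change of 4.70 (SE 0.25, limma adjusted p = 2.22e-05). CCL20 attracts immature dendritic cells and some lymphocytes through CCR6 in mammals, and is a common product of epithelium exposed to bacteria. Its level was 58.7 and 69.2 FPKM in the LPS libraries, against 0.217 and 0.862 FPKM in the control libraries. CCL20 had the lowest mean of the 8 entries in control liver, 0.540 FPKM, and, unlike most of them, was higher in LPS library 2 than in LPS library 1. Its log2 fold change was 5.43 (SE 0.25, adjusted p = 1.15e-05), and the ratio of mean FPKM, 118, was the highest among the 8 entries, just above the 114 of CCLL4.

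CCL19 is a homeostatic chemokine of lymphoid tissue that guides CCR7-bearing dendritic cells and T cells. It had 289 and 184 FPKM in the LPS libraries, against 9.18 and 11.3 FPKM in the control libraries. Both LPS libraries exceeded every other chemokine entry of that treatment, and the LPS libraries differed from each other by more FPKM than the whole control level. The log2 fold change was 4.37 (SE 0.24, 95% confidence interval 3.81 to 4.93, limma adjusted p = 2.40e-05). Its receptor gene CCR7, with 1.32 and 1.60 FPKM in the LPS libraries and 0.765 and 2.05 FPKM in the control libraries, did not pass the test (log2 fold change 0.08, adjusted p = 0.839). The control libraries of CCR7 lay on either side of the LPS libraries.

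k60 is a chicken CXC chemokine of the interleukin-8 type, with the RefSeq symbol IL8L1, and lies beside the second such gene, IL8L2, on chromosome 4 in RefSeq. Interleukin-8 draws neutrophils in mammals. k60 had 7.54 and 4.27 FPKM in the LPS libraries, against 0.528 and 0.592 FPKM in the control libraries. The groups did not overlap, but k60 was the least abundant of the 6 entries that rose, and its log2 fold change of 2.10 (SE 0.27, limma adjusted p = 9.77e-04) was the smallest of the 6. On this scale the change of a gene near 0.5 FPKM in control is compressed: with a pseudocount of 0.1 in place of 1 it was 3.13. Reads of k60 and its relative, listed as IL8, may have been divided between them.

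CXCL12 is a homeostatic CXC chemokine of stromal and endothelial cells that holds CXCR4-bearing progenitors and lymphocytes in place. It had 7.12 and 4.23 FPKM in the LPS libraries, against 9.64 and 13.2 FPKM in the control libraries. The highest LPS library was below the lowest control library, and CXCL12 had a log2 fold change of -0.92 (SE 0.27, 95% confidence interval -1.53 to -0.30, limma adjusted p = 0.0270). The call was lost when libraries were set to equal medians (log2 fold change -0.64, adjusted p = 0.0988), with no expression filter (adjusted p = 0.0725), without LPS library 2 (log2 fold change -0.60, adjusted p = 0.166) and without control library 2 (-0.71, adjusted p = 0.124). Summed endothelial markers were also lower after LPS, at 59.1 to 76.3 FPKM against 115 to 127 FPKM in control (5 of 10 genes, 3 at equal medians). Summed stellate cell and fibroblast markers overlapped, at 216 to 292 FPKM after LPS and 244 to 312 FPKM in control (1 of 8 genes lower). The part of either cell group in the CXCL12 result was not tested. Of the receptors of CXCL12, CXCR4 had 1.68 and 1.44 FPKM in the LPS libraries and 1.87 and 2.05 FPKM in the control libraries, and did not pass the test (log2 fold change -0.21, adjusted p = 0.464). The atypical receptor CXCR7, also called ACKR3, did not pass it either (-0.24, adjusted p = 0.423).

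CCLI10 is an entry the table describes only as a chemokine, and its role is not stated. It had 85.9 and 147 FPKM in the LPS libraries, against 179 and 293 FPKM in the control libraries. The groups did not overlap, but the lowest control library was only a little above the highest LPS library, and in each treatment library 2 was the higher. CCLI10 had a log2 fold change of -1.02 (SE 0.31, 95% confidence interval -1.74 to -0.30, limma adjusted p = 0.0318). The call was lost at equal medians (log2 fold change -0.71, adjusted p = 0.124), with no expression filter (adjusted p = 0.0871), without LPS library 1 (log2 fold change -0.64, adjusted p = 0.0570) and without control library 2 (-0.67, adjusted p = 0.167). Both LPS libraries lay below both control libraries for 55.8% of all tested genes. Summed macrophage markers were lower after LPS, at 246 to 252 FPKM against 538 to 565 FPKM in control (6 of 7 genes, 5 at equal medians). Summed endothelial markers were lower too (5 of 10 genes, 3 at equal medians), while summed hepatocyte, thrombocyte and B cell markers were higher. The B cell sum was higher only through BCL6. Without BCL6 it was 10.5 and 12.2 FPKM in the LPS libraries and 12.2 and 14.5 FPKM in the control libraries. Much of the thrombocyte sum after LPS was THBS1. The part of any of these cell types in the CCLI10 result was not tested.

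**Figure D2:**
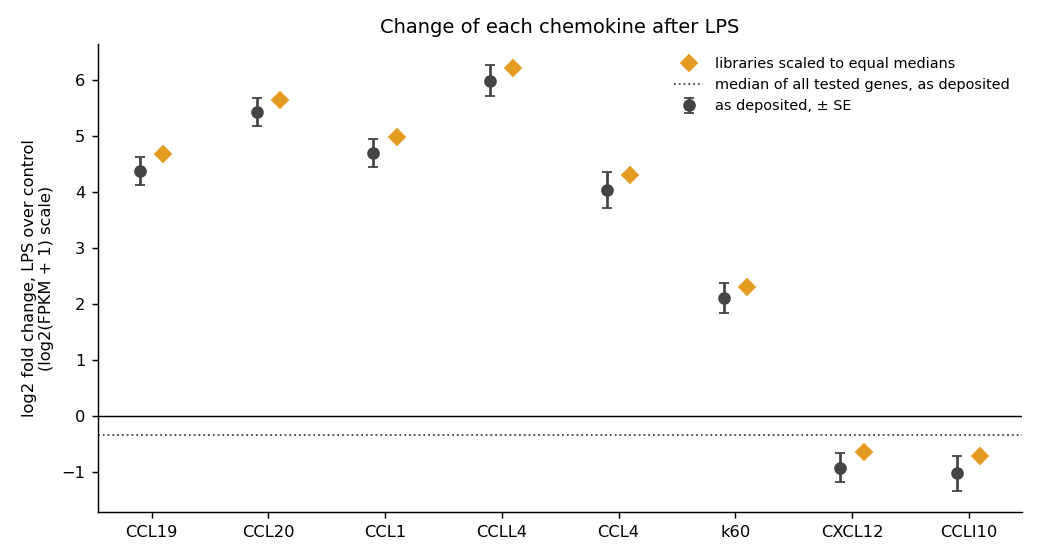
Log2 fold change of each chemokine entry, LPS over control, on the log2(FPKM + 1) scale, as deposited (circles, with bars of 1 SE on either side from limma) and with libraries set to equal medians (diamonds); the dotted line is the median of all tested genes as deposited, -0.34. The 6 rises lie between 2.10 and 5.98 as deposited, and CXCL12 and CCLI10 lie at -0.92 and -1.02, closer to 0 at equal medians.

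The total and the make-up of the chemokine message both differed between treatments. The 8 entries together came to 776 and 674 FPKM in the LPS libraries and to 203 and 329 FPKM in the control libraries, or 0.142% and 0.120% of all FPKM after LPS and 0.0375% and 0.0578% in control. CCLI10 made up 11.1% and 21.8% of the chemokine sum in the LPS libraries, against 88.2% and 89.1% in the control libraries. Without CCLI10 the sum was 690 and 527 FPKM in the LPS libraries and 23.9 and 35.9 FPKM in the control libraries. CCL19 held the largest share after LPS, with 37.3% and 27.3%, against 4.53% and 3.45% in control. CCLL4 followed with 18.4% and 17.3% in the LPS libraries, against 0.280% and 0.519% in the control libraries, and CCL1 with 16.1% and 14.8% after LPS, against 1.21% and 1.35% in control. CXCL12, which held 0.918% and 0.627% after LPS, had 4.75% and 4.02% in control.

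**Figure D3:**
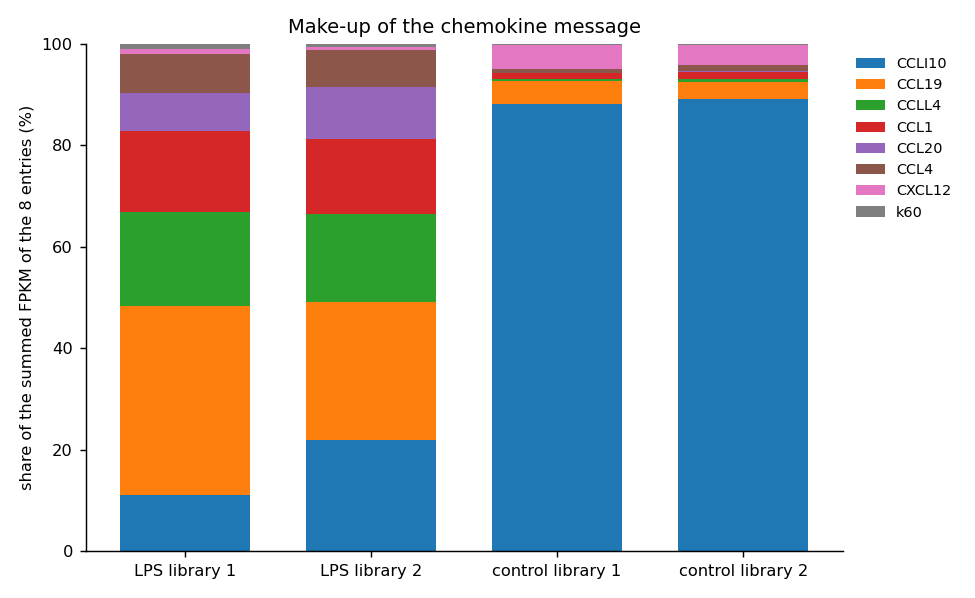
Share of the summed chemokine FPKM held by each of the 8 entries in each input library (percent, stacked to 100). CCLI10 fills 11.1% and 21.8% of the LPS bars and 88.2% and 89.1% of the control bars, and CCL19 is the widest band in the LPS bars.

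Ordered by mean FPKM, which is per length, the LPS livers had CCL19 first, then CCLL4, CCLI10 and CCL1, then CCL20 and CCL4, and last k60 and CXCL12. Libraries of neighbours within each of these 4 groups overlapped, and the groups themselves did not. In control livers CCLI10 came first, apart from all others, and CXCL12 and CCL19 followed with overlapping libraries. CCL1, CCL4, CCLL4, k60 and CCL20 came last, each overlapping with the next in the order.

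Libraries of the same treatment also differed. All 8 entries were higher in control library 2 than in control library 1, as were 52.1% of tested genes, and the median log2 difference was 0.78 for the 8 and 0.02 over tested genes. Between the LPS libraries, 2 of the 8 (CCL20 and CCLI10) were higher in library 2, as were 46.6% of tested genes, with a median log2 difference of -0.31 for the 8. The 4 other chemokine ligands tested were all higher in control library 2 than in control library 1, and 3 of these 4 were higher in LPS library 2 than in LPS library 1.

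Of 30 names of further chemokine ligands, 6 genes were in the table, 4 were tested and 3 of these were higher after LPS, with none lower, against 10.7% higher and 31.4% lower among all tested genes. All 3 had a control mean under 1 FPKM and reached the filter only through their LPS libraries, so they could enter the test only with a rise, and the count is no support. IL8, a relative of k60, had 10.9 and 5.58 FPKM in the LPS libraries, against 0.342 and 0.369 FPKM in the control libraries (log2 fold change 2.71, SE 0.30, limma adjusted p = 0.000487). CXCL13L2, named after the B cell attractant CXCL13, had 14.3 and 19.9 FPKM after LPS, against 0.0609 and 0.153 FPKM in control (log2 fold change 4.02, SE 0.23). CX3CL1, a membrane-bound chemokine of endothelium and epithelium, had 8.03 and 8.41 FPKM after LPS, against 0.518 and 1.14 FPKM in control (log2 fold change 2.35, SE 0.24). None of the LPS libraries of these genes came close to a control library. The fourth, scyc1 or XCL1, had 6.81 and 7.01 FPKM after LPS, against 4.16 and 4.82 FPKM in control, and missed the threshold (log2 fold change 0.53, adjusted p = 0.0601). At equal medians it passed (adjusted p = 0.0170).

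Of 22 receptor names, 15 genes were in the table and 8 were tested, of which 1 was higher and 1 lower, against 10.7% and 31.4% of all tested genes. Both called receptors reached the filter only through the treatment in which they were high. The median log2 fold change of the 8 was -0.06, and 0.15 at equal medians, against -0.34 and -0.07 over all tested genes. ACKR2, a scavenger of inflammatory CC chemokines, had 3.11 and 3.03 FPKM in the LPS libraries, against 0.669 and 0.835 FPKM in the control libraries, and rose by a log2 fold change of 1.22 (SE 0.22, limma adjusted p = 0.00381). CX3CR1, the receptor of CX3CL1 and a mark of monocytes and macrophages, was listed at 0 in LPS library 1 and had 0.146 FPKM in LPS library 2, against 3.58 and 1.76 FPKM in the control libraries. It fell, with a log2 fold change of -1.73 (SE 0.30, adjusted p = 0.00326), while its ligand rose. Macrophage markers, lower after LPS in 6 of 7 tested genes (5 at equal medians), moved the same way, and their part was not tested.

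CCR6 and CCR8, which bind CCL20 and CCL1 in mammals, were below the filter, with at most 0.558 FPKM in any library. The other 5 receptors below the filter were CCR4, CCR8L, CCR9, CXCR5 and the XCR1-like CCXCR1-L.

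**Figure D4:**
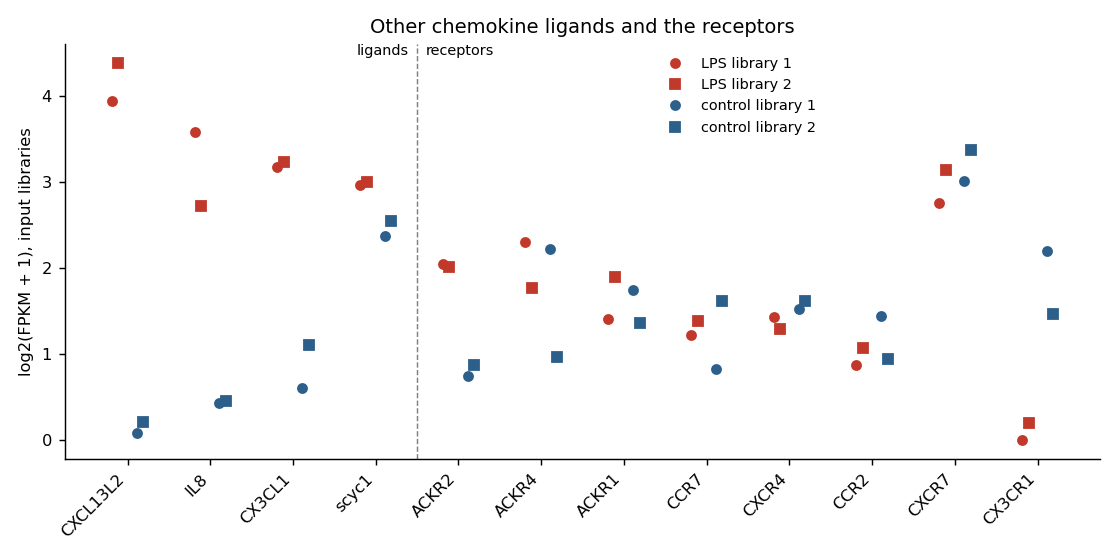
Levels, as log2(FPKM + 1), of the other chemokine ligands (left of the dashed line) and the chemokine receptors (right) that were tested; points are the 2 LPS and 2 control input libraries. ACKR2 lies higher in the LPS libraries, at 3.11 and 3.03 FPKM against 0.669 and 0.835 FPKM in control, and CX3CR1 lies lower.

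Downstream of the receptors, 1 of 15 tested signalling genes was higher and 6 were lower, against 10.7% and 31.4% of all tested genes, with a median log2 fold change of -0.30 against -0.34 over all tested genes. With equal medians, 2 were higher and 3 lower. The shares are near those of all genes, so the values that follow describe single genes. Of the 7 called, 2 (GRK5 and GRK6) had an LPS mean under 1 FPKM. The receptor kinases GRK6 and ADRBK2, which switch off activated receptors, had log2 fold changes of -1.50 (limma adjusted p = 0.00169) and -1.19 (adjusted p = 0.00381). RAC2, a small GTPase of leukocyte movement, had a log2 fold change of -1.01 (adjusted p = 0.00377). The 1 that rose was PIK3R5, a regulator of the PI3 kinase gamma used by these receptors, with a log2 fold change of 1.13 (adjusted p = 0.0246). Its call was lost with no expression filter (adjusted p = 0.0719), without LPS library 1 (adjusted p = 0.131) and without control library 1 (adjusted p = 0.112).

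Of the NF-kB subunits, inhibitors and kinases, 9 of 11 were higher after LPS and none was lower. Among all tested genes, 10.7% were higher and 31.4% lower. The median log2 fold change of the 11 was 2.58, against -0.34 over all tested genes. TNIP2 and TNFAIP3, feedback inhibitors of NF-kB, rose by 4.87 (limma adjusted p = 6.80e-06) and 3.47 on the log2 scale. NFKBIA, which holds NF-kB in the cytoplasm, had 147 and 153 FPKM in the LPS libraries, against 6.08 and 10.6 FPKM in the control libraries, a log2 fold change of 4.06. NFKBIZ rose by 3.74. The kinases IKBKB and CHUK, with log2 fold changes of -0.37 and -0.23, did not pass the test. The part of the NF-kB genes in the chemokine changes was not tested.

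For each chemokine, the tested gene with the nearest profile was found by the Euclidean distance of log2(FPKM + 1) over the 4 input libraries. CXCL12 had the closest match, RFC4, at a distance of 0.141, with 6.67 and 4.14 FPKM in the LPS libraries and 9.59 and 12.2 FPKM in the control libraries. The nearest gene was CH25H for k60 (0.450), SLC9A3R1 for CCLI10 (0.563), MADCAM1 for CCL19 (0.577), WDR86 for CCL4 (0.608), IL4I1 for CCL1 (0.712) and IL1R2 for CCL20 (0.767). Among the genes searched, CCLL4 had none within a distance of 1. The nearest was INOS at 1.06, with 144 and 144 FPKM in the LPS libraries and 1.86 and 0.866 FPKM in the control libraries. With 4 libraries in 2 treatments, any gene of similar level and treatment difference is near.

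In the m6A peak lists, 4 of the 8 chemokine entries had a peak and 4 (CCL1, CCL20, CCLL4 and k60) had none in either. The LPS list held peaks in 3 of the 8, against 41.0% of tested genes, and the control list also in 3 of the 8, against 50.5%. There were 5 peaks after LPS and 3 in control, and the authors' annotation put all 8 in a 3′ UTR, the class of 42.2% of peaks in the whole LPS list and 45.2% in the control list. Each peak lay within 1 exon block. Fold enrichments are the authors' ratios of IP to input for each peak, with no replicate spread, so they are described here without a test. The genome build of the coordinates is not given in the sources used here.

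CCLI10 had a peak in both lists. In the authors' deposited table for LPS it lay at chr19:4793231-4793492 on the plus strand, with a fold enrichment of 2.47. In the authors' deposited table for control it lay at chr19:4793202-4793550, with a fold enrichment of 4.58. The LPS peak was wholly within the control peak, sharing 262 bases, and both ended within 58 bases of the 3′ end of the transcript. The control peak stood at percentile 41.5 of its list by fold enrichment and the LPS peak at percentile 15.7 of its own.

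CCL19, on the minus strand of chromosome Z, had 2 peaks in the LPS list and 1 in the control list. In the authors' deposited tables, chrZ:8222991-8223258 was enriched 2.37-fold after LPS and chrZ:8222991-8223169 was enriched 2.78-fold in control. These shared 179 bases, the whole of the control peak. The second LPS peak, chrZ:8222635-8222694, was enriched 5.34-fold in the authors' deposited table, covered 60 bases at the very 3′ end of the transcript and had no counterpart in the control list.

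CCL4 had peaks in the LPS list only, both on the minus strand of chromosome 19. In the authors' deposited table chr19:372485-372634 had a fold enrichment of 22.3, the highest of the chemokine peaks, at rank 502 of 5938 in the LPS list. The other, chr19:372157-372336, had 1.64 in the authors' deposited table, at percentile 2.73. The transcript to which these peaks were annotated spans 14285 bases, and the peaks lay 8771 and 8443 bases from its 3′ end. CCL4 had only 1.35 and 3.76 FPKM in the control input libraries, where 34.1% of tested genes with 1 to 5 FPKM had a peak.

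CXCL12 had a peak in the control list only, at chr6:18562645-18563064 on the minus strand, with a fold enrichment of 9.04 in the authors' deposited table. It covered 420 bases and lay 3137 bases from the 3′ end. Its mean level was 5.67 FPKM after LPS and 11.4 FPKM in control, and of tested genes with 5 to 20 FPKM 49.5% had a peak in the LPS list and 56.4% in the control list. The LPS mean was near the lower edge of that range, with 4.23 FPKM in LPS library 2. Of tested genes with 1 to 5 FPKM after LPS, 23.4% had a peak in the LPS list. CCLL4 and CCL1, at 130 and 112 FPKM after LPS, had no LPS peak, although 64.3% of tested genes at 100 FPKM or more had one. CCL20 had none at 63.9 FPKM, where 59.8% of tested genes with 20 to 100 FPKM had one. No peak in a list is not evidence of unmethylated RNA, since neither read depth over the gene nor the caller's threshold is known.

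**Figure D5:**
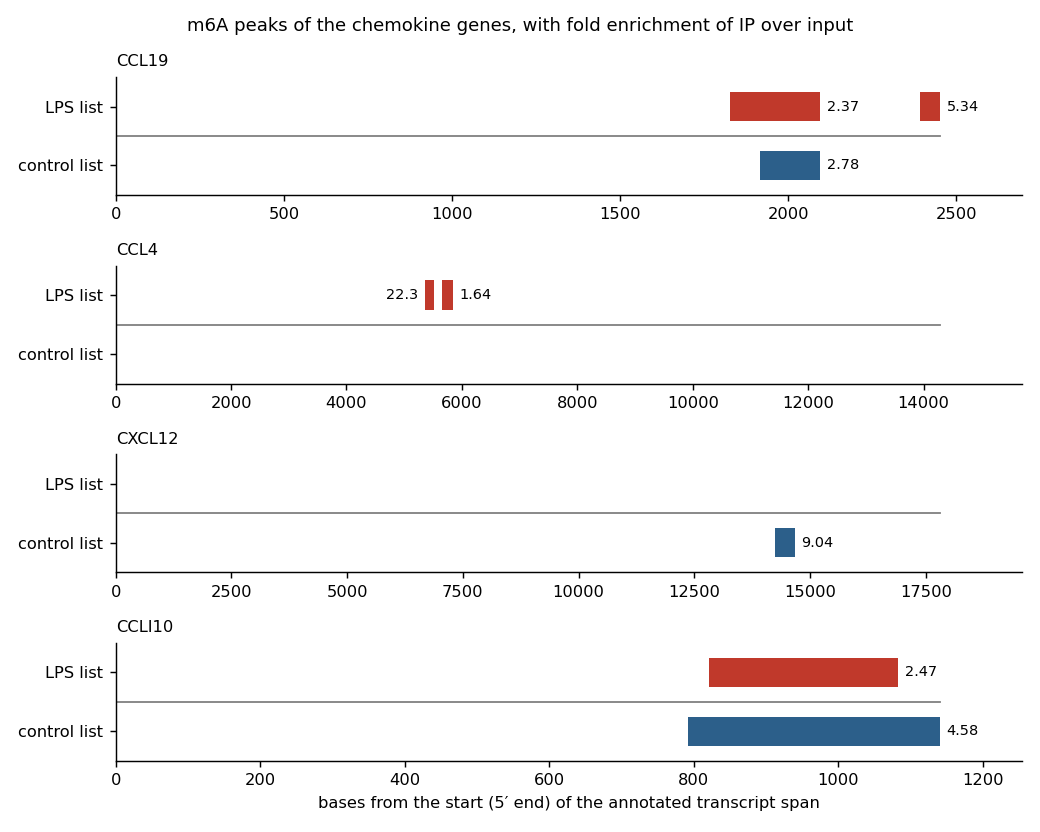
Positions of the m6A peaks of the 4 chemokine genes that had any, in bases from the 5′ end of the annotated transcript span, with the LPS list above the control list; numbers are the authors' fold enrichments of IP over input. The CCLI10 peaks and 1 peak pair of CCL19 overlap between lists, the CCL4 peaks are in the LPS list and the CXCL12 peak is in the control list.

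Of the other tested ligands, 2 of 4 had a peak in the LPS list and 0 of 4 in the control list, and of the tested receptors 2 of 8 had a peak in the LPS list and 3 of 8 in the control list, against 41.0% and 50.5% of all tested genes. In the authors' deposited tables ACKR1, a receptor that binds many inflammatory chemokines, had overlapping peaks of fold enrichment 6.27 after LPS and 22.9 in control. CCR7 had overlapping peaks of 5.72-fold after LPS and 5.22-fold in control in the authors' deposited tables. CX3CL1 and CXCL13L2 had a peak in the LPS list only, with fold enrichments of 9.52 and 3.18 in the authors' deposited table. CXCR7 had 1 in the control list only, with 2.85 in the authors' deposited table. So did CCR8, with 7.02 in the authors' deposited table, but CCR8 was below the filter and is not among the 8.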

How the data were processed

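Liver RNA of 4 groups of 2 libraries was grouped by the labels; LPS is the only treatment they name, so "Treat" in the files was read as LPS. An IgG control was not analysed here. The submitters' processing notes list the tools HISAT2, StringTie, HOMER and ChIPseeker with neither version nor role; the genome build, the caller of the peaks and its settings are likewise not given in the sources used here. FPKM per input library were deposited by the authors, and these are normalized values, not counts. The authors also deposited 1 peak list per treatment, and for each peak a p-value and a fold enrichment, the IP over input ratio. In each list 1 repeated entry was dropped. Some genes were named through RefSeq (GRCg7b), used for names and neighbours only.

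Absolute depth is unknown. Depth relative to control library 1 was judged from the most frequent FPKM ratio among genes under 0.1 FPKM in both libraries. It was 0.818 for LPS library 1, 0.891 for LPS library 2 and 0.858 for control library 2. Only 12 of 214, 12 of 226 and 10 of 217 genes compared held that ratio, so these are rough estimates.

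Expression was tested in R 4.3.3 by limma 3.58.1, using a trended prior, on log2(FPKM + 1) values of the 9484 genes whose mean in the 4 input libraries reached 1 FPKM, LPS against control, two-sided, with Benjamini-Hochberg adjustment over all tested genes and calls under 0.05. The procedure was tested on simulated data. Peaks were compared in Python 3.11.15 with pandas 2.3.3, as shared where exon blocks on the same strand overlapped by at least 1 base. Alternatives were equal medians, a pseudocount of 0.1, no filter, a minimum mean of 5 FPKM, a replicate block, each library left out, a 50% overlap of the shorter peak, and a fold enrichment of at least 5.

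The chemokine entries and lists were chosen with earlier results of these data known. Of 182 list names, 120 matched a gene; 1 receptor was taken out of its list after the results were known and is not reported here. Named genes were every chemokine entry, all called genes of the other ligand and receptor lists, up to 4 called genes with the largest change of the signalling and NF-kB lists, and the nearest gene of each entry. Other genes were named after their values were seen.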

Additional observations from a re-analysis of the deposited data

How the results depend on the processing

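The 6 chemokine rises kept their call in every alternative in which they were tested; k60 was below the minimum mean of 5 FPKM. Of 71 recomputed fold changes of the 8 entries, 63 kept their side of the threshold, none reversed, and the other 8 were calls of CXCL12 and CCLI10 that were lost, as given beside those genes. The number of entries lower after LPS was 2 as deposited, 0 at equal medians, 0 with no filter and 0 to 2 with 1 library left out; 2 were lower without control library 1, 1 without either LPS library and none without control library 2. Over all tested genes, 1594 were lower at equal medians, against 2982 as deposited. With a minimum mean of 5 FPKM, 1 further ligand and no receptor or signalling gene was higher (0 of each), while 0 receptors and 2 signalling genes were lower. At equal medians 2 signalling genes were higher and 3 lower. With no filter 0 signalling genes were higher and 2 receptors lower. With 1 library left out, 1 to 2 receptors were higher (ACKR4 was called without control library 1, adjusted p = 0.0384) and 0 to 1 signalling genes were higher. The same-numbered libraries did not deviate together across genes (correlation 0.029). This does not settle whether the numbers pair samples, since the labels do not say and each group has 2 libraries. With the replicate block 1071 genes were higher and 3150 lower, and the 8 chemokine calls held. Requiring a fold enrichment of at least 5 left 2 LPS peaks, 1 control peak and 0 shared ones, and requiring 50% overlap kept both shared pairs. The causes of these shifts were not tested. With 2 libraries a group and unknown depth, small differences are not detectable.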

Other observations

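Ratios of related genes differed between the LPS and control libraries. CCLL4 stood at 2.40 and 2.39 times CCL4 in the LPS libraries, against 0.420 and 0.453 times in the control libraries. k60 stood at 0.689 and 0.766 times IL8 in the LPS libraries, against 1.54 and 1.60 times in the control libraries. Both k60 and IL8 were under 1 FPKM in the control libraries, as was CCLL4 in control library 1. The control ratios therefore rest on low levels. The groups did not overlap in either ratio, and an exact two-sided permutation test gave p = 0.333 for each, the smallest that 2 against 2 libraries allow. How reads shared by related genes were counted bears on these ratios and is not given in the sources used here.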
